A study of Drosophila melanogaster with 2 samples.

Results

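The cytosolic ribosomal protein genes of Drosophila melanogaster were taken as the protein-coding genes whose symbol is RpL, RpS or RpLP followed by a digit. The rule found 92 genes among 13945 protein-coding genes, counting chromosome 4, the X and the arms of chromosomes 2 and 3 in the Release 6 (dm6) annotation, 54 for the large subunit and 38 for the small subunit. Chromatin immunoprecipitation and sequencing (ChIP-seq) had been done for Atf-2, a basic leucine zipper transcription factor, in whole embryos of the strain Atf-2-GFP aged 0 to 24 h, males and females pooled. The embryos came from a transgenic line that stably expresses Atf-2 carrying a C-terminal GFP (green fluorescent protein), and the precipitation used an antibody against GFP on sonicated chromatin, with a fragment size range of 200 to 800 bp. The only group held 2 biological replicates, numbered 2 and 3, from this single line, so no conditions could be compared. Control samples of the caller were not used here. Whole embryos mix all cell types of a day of development, and the promoter that drives the fusion is not given in the sources used here.

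Each ribosome joins a small subunit, which reads the mRNA, to a large subunit, which forms the peptide bond, and nearly every protein of both is needed in equal amounts in every cell. In flies, loss of one copy of many of these genes gives the Minute phenotype of slow development and short bristles, and cells with such a loss are removed by cell competition when they lie beside normal cells. Transcription of ribosomal protein genes in flies starts at a pyrimidine-rich element, the TCT initiator, and uses the TBP-related factor TRF2. Some of the proteins are encoded by a pair of genes, one of which is often used mainly in the germline.

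A gene is called bound below if a summit from the list filtered by irreproducible discovery rate (IDR) lay within 500 bp of any of its annotated transcription start sites (TSSs). That list held 3265 peaks, which were also the 3265 strongest of 30000 regions called on the pooled replicates, so that being bound amounts to a pooled signal of at least 84.6. Signal is the number that the peak caller of the authors assigned to a region. The depth behind it is unknown, and it carries no error of its own. The pooled list and the list of each replicate include background, so a region in them is not a call.

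Promoter sequences of 8 genes show the features to which the results refer. They were chosen for a strong peak with or without known promoter motifs (RpS25, RpL23A and RpS10b), as pairs of paralogues (RpL34b with RpL34a, RpS14a with RpS14b), and as a promoter with a TCT initiator and no pooled region (RpS9). Each runs 5′ to 3′ on the strand of the gene from 100 bases upstream of an annotated TSS and includes 20 bases from that TSS on, read from the Release 6 sequence. Capitals mark the TCT initiator (the word CTTT between pyrimidines, near the TSS), the DNA replication-related element (DRE, TATCGATA), the site of the factor M1BP (GGTCACACT), and the word CAACACTG on either strand.
RpS25, chr3R:11216268-11216387, minus strand: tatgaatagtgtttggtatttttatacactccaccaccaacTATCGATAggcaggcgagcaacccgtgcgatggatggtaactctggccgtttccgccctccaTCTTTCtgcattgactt
RpL23A, chr3L:1668635-1668754, minus strand: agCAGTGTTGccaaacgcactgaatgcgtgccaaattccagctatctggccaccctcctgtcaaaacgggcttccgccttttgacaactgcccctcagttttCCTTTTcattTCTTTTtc
RpS10b, chrX:19597940-19598059, plus strand: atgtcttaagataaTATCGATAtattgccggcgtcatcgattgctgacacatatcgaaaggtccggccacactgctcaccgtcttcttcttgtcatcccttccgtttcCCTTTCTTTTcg
RpL34b, chr3R:9401207-9401326, minus strand: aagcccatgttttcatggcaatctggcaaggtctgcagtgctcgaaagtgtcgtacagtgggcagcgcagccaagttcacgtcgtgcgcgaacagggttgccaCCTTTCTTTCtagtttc
RpL34a, chr3R:26059248-26059367, minus strand: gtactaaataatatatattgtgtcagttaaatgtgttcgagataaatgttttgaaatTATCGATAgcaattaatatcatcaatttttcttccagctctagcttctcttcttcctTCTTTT
RpS14a, chrX:7933642-7933761, plus strand: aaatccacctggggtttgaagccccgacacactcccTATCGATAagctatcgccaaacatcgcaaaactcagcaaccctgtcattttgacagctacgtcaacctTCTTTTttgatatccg
RpS14b, chrX:7935072-7935191, plus strand: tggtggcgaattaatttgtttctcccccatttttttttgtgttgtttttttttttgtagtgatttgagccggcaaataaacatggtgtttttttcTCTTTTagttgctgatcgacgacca
RpS9, chr3L:9511512-9511631, minus strand: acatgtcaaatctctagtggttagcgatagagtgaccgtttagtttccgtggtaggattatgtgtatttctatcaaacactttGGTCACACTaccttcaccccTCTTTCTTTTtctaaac

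Of the 92 genes, 57 were bound, which is 62.0% with an exact (Clopper-Pearson) 95% interval of 51.2 to 71.9%. Of all protein-coding genes, 2081 were bound, or 14.9%. Intervals cover counting error over genes only. A region of any strength in the pooled list lay at 84 of the 92 genes (91.3%) and at 51.1% of all protein-coding genes. Among the strongest 3265 regions of replicate 2 taken alone were promoters of 55 members, beside 15% of all genes, and among those of replicate 3 were 50 members, beside 14.1%. In both of these lists were 45 members (48.9%), beside 11.1% of all genes. The bound members were found at similar shares on most chromosomes. They were 11 of 19 on 2L, 12 of 21 on 2R, 10 of 14 on 3L, 13 of 23 on 3R and 10 of 14 on the X. Of all protein-coding genes, from 13.5% (2R) to 16.5% (3R) were bound on these arms and the X. RpS3A, also bound, was the only member on chromosome 4.

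The peaks at the bound members were moderately strong and not among the strongest of the experiment. Their signal had a median of 160.5 and ran from 86.5 to 464.5. All 2081 bound genes had a median of 139.5 and reached 1798. Of the 57 bound members, 25 (43.9%) lay among the strongest 1000 IDR peaks, beside 36.1% of all bound genes. The strongest peak of the group, at RpS27, ranked 114.

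The gene with the highest signal was RpS27 on 3R, which encodes a zinc-binding protein of the small subunit, with a pooled signal of 464.5, a signal of 321.6 in replicate 2 and of 143.6 in replicate 3. RpL41, which encodes the smallest protein of the large subunit, followed with 413.8 pooled, 240.5 in replicate 2 and 176.3 in replicate 3. RpL7 had 408.3 pooled, 248.6 in replicate 2 and 167.6 in replicate 3. These genes held the highest values of the group in replicate 3, and RpL23A came above RpL7 and RpL41 in replicate 2.

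RpL23A, a protein at the exit of the peptide tunnel, had 352.8 pooled, 265.2 in replicate 2 and 92.3 in replicate 3. RpS20 had 318.7, 220.3 and 98.2 in the same order, and RpL34b had 299.6, 217.8 and 83.4. RpS25, whose promoter is printed above, had 294.6 pooled, 184.6 in replicate 2 and 112.8 in replicate 3. Each of these was stronger in replicate 2, as were 54 of the 57 bound members.

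The 12 strongest members also held RpLP0 (280.5 pooled), RpL13A (279.9), RpL14 (259.9) and RpS10b (239.4). The signals of these in replicate 2 lay between 161.5 and 195.6, and those in replicate 3 between 82.4 and 99.6. Of the 12 genes, 8 belong to the large subunit and 4 to the small subunit.

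**Figure D1:**
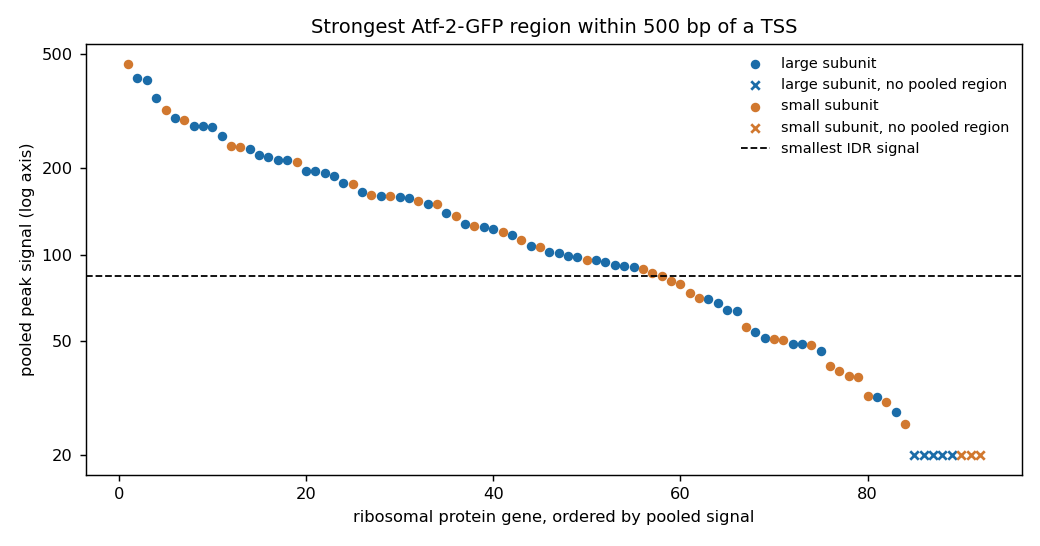
Pooled peak signal (log axis) of the strongest region within 500 bp of a TSS for the 92 ribosomal protein genes in descending order, coloured by subunit, with the smallest IDR signal of 84.6 as a dashed line and crosses at the foot for 8 genes with no pooled region. The values fall without a step through the line, from 464.5 at RpS27 to 25.6 at RpS3.

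No gap in signal separated bound from unbound members. The weakest bound members were RpS23 at 86.5, which ranked 3163 in the IDR list, and RpS7 at 89.2. Outside it, RpS30 had 80.9 and RpS14b had 78.9. By distance the boundary was less crowded, and with a limit of 250 bp in place of 500 bp 56 members would be bound. The nearest IDR summits of unbound members lay at 579 bp from RpS15 and 882 bp from RpS19b.

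The replicates ordered the members much alike, with a Spearman rho of 0.84 and a Pearson r of log2 signals of 0.79 over the 80 members with a region in both. These are correlations across genes within the same pair of samples, and genes are not independent replicates. The signal of bound members had a median of 111.4 in replicate 2 and of 52.8 in replicate 3. The ratio of replicate 2 to replicate 3 had a median of 2.09 in bound members and of 2.04 in all bound genes. The summits of the replicates lay a median of 23 bp apart in bound members, and within 50 bp of each other in 42 of 57.

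Some bound members were among the strongest 3265 regions of only 1 replicate. Both lists held 45 of the 57 bound members (78.9%), beside 73.2% of all bound genes. RpL27, RpL29, RpL35A, RpL36, RpL37-1, RpS14a and RpS7 were bound and among the strongest 3265 regions of replicate 2 but not of replicate 3. The opposite held for RpL10Ab, RpL3, RpL8, RpLP0-like and RpS23. Several missed the cut narrowly, such as RpS7, at rank 3413 in replicate 3, and RpL3, at rank 3486 in replicate 2. RpL10Ab still had the higher signal in replicate 2, with 45.7 beside 33.5 in replicate 3. The largest disagreements were RpLP0-like, with 26.6 in replicate 2 and 68.7 in replicate 3, and RpL29, with 71.3 in replicate 2 and 15.7 in replicate 3. The unbound RpL7A and RpS14b were among the strongest of replicate 2 alone.

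**Figure D2:**
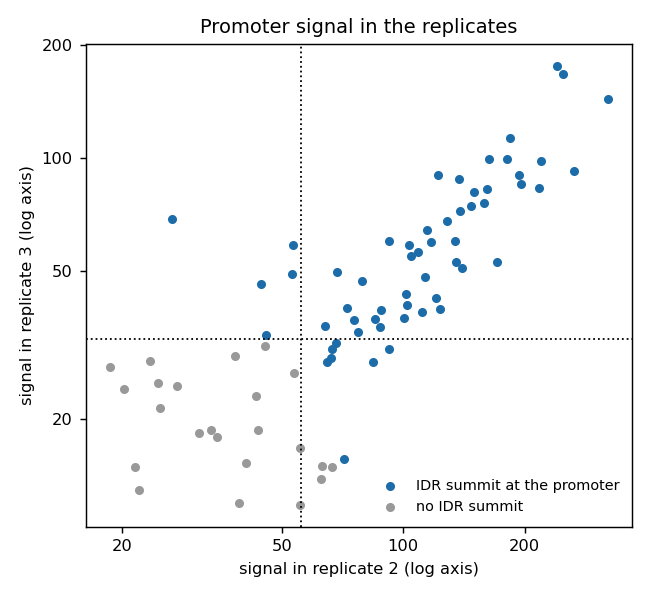
Signal of the strongest promoter region in replicate 2 (horizontal, log axis) and replicate 3 (vertical, log axis) for the 80 members with a region in both, with dotted lines at the signal of the 3265th region of each list (55.6 and 32.8). The blue points (bound) run along a diagonal up to 321.6 and 176.3, and the lone blue points at the left and at the foot are RpLP0-like and RpL29.

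Of the large subunit genes 38 of 54 were bound (70.4%, exact 95% interval 56.4 to 82.0%), and of the small subunit genes 19 of 38 (50%, 33.4 to 66.6%). The intervals overlap, and the difference was not tested. Genes of both subunits had some pooled region at nearly the same share, in 49 of 54 and in 35 of 38. Outside the sets of paralogues the counts were 29 of 40 for the large subunit and 13 of 25 for the small subunit. Bound genes of the subunits had similar signals, with a median of 163.5 for large and 154.2 for small subunit genes.

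Parts of the ribosome with a defined role were spread over bound and unbound genes. These groups are small, and no difference from the share of their subunit was tested. The proteins of the P stalk, which recruits the elongation factors, were all encoded by bound genes. RpLP0 had a pooled signal of 280.5, RpLP2 of 107.7 and RpLP1 of 91.5. Of the proteins that carry the 5S rRNA into the large subunit, RpL11 was bound with 213.6 and RpL5 was not, with 67.9. RpL3, near the peptidyl transferase centre, was bound with 102.4, and RpL10 beside that centre was not, with 31.9.

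Around the exit of the peptide tunnel 5 of 7 genes were bound, beside 38 of 54 large subunit genes (70.4%). RpL23A (352.8), RpL19 (196.6), RpL26 (189.1), RpL31 (177.8) and RpL17 (160.9) were bound, while RpL39 had 70.2 and RpL35 had 46.1, with no region for RpL35 in replicate 3. Of the genes that encode ubiquitin fused to a ribosomal protein, RpS27A was bound with 125.7, and RpL40 had no pooled region and only 16.5 in replicate 2.

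Of 4 genes for proteins along the mRNA path of the small subunit 1 was bound, beside 19 of 38 small subunit genes (50%). RpS23, which helps to monitor decoding, was bound with 86.5, and RpS2 had 51.0, RpS15 had 37.4 and RpS3 had 25.6, the smallest pooled signal of the group. RpS6, whose protein is phosphorylated by S6 kinase, was unbound. Its strongest pooled region, with 50.3, lay at -438 bp, nearer to the TSS of bys, a gene for small subunit assembly. In replicate 2 a region with 43.7 had its summit at -3 bp from the TSS of RpS6, and in replicate 3 the strongest, with 18.7, lay at -441 bp. RpS12, which in flies acts upstream of the transcription factor Xrp1 in cell competition, was bound with 161.5 pooled, 113.1 in replicate 2 and 48.2 in replicate 3.

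The summits lay close to the start of transcription. In bound members the summit had a median position of -30 bp (negative is upstream), with quartiles of -57 and -11 bp. Its distance to the nearest TSS of the gene had a median of 32 bp, beside 143 bp in all bound protein-coding genes. Within 60 bp of a TSS were 44 of 57 bound members (77.2%), beside 19.9% of all bound genes, and within 100 bp were 51 (89.5%), beside 35.4%. The share upstream of the TSS was alike, at 86.0% and 87.5%.

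A single summit can count for neighbouring genes, which adds distant positions to the whole set. Among genes whose own TSS was the nearest to the summit, the median distance was 28 bp in 53 bound members and 113 bp in 1492 bound genes. Mitochondrial ribosomal protein genes, taken as those with symbols mRpL or mRpS and a digit, were bound in 20 of 73 cases (27.4%, 17.6 to 39.1%), with a median distance of 177 bp. RpS4 had its summit at its nearest TSS, RpS27 at -28 bp, RpL41 at -23 bp and RpL7 at +27 bp. From another annotated TSS, which has the TCT initiator, the summits of RpS4 and RpL7 lay at -45 and -69 bp. Those of RpL23A at -95 bp, RpS20 at -120 bp and RpLP2 at -152 bp were farther upstream of the nearest TSS. The subunits had similar positions, with medians of -31 bp (large) and -28 bp (small). Unbound members had weaker regions at comparable places, with 21 of 27 pooled summits within 100 bp of a TSS.

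**Figure D3:**
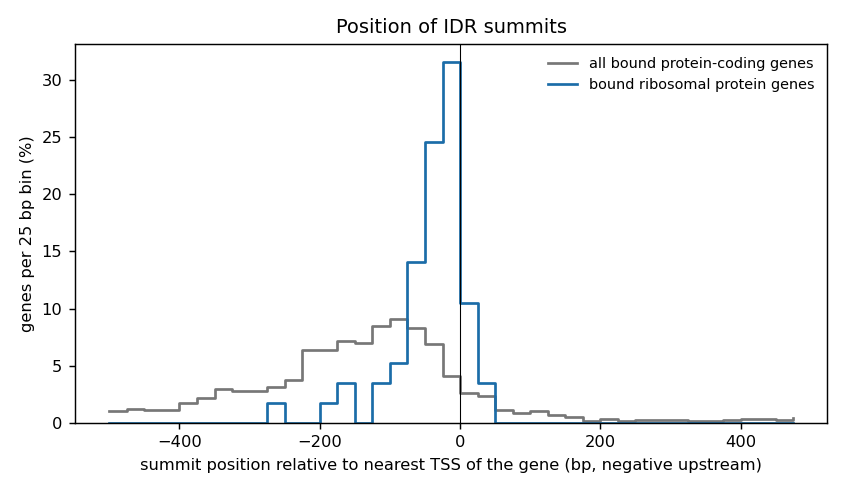
Position of the strongest IDR summit relative to the nearest TSS of the gene (bp, negative upstream) as percent of genes per 25 bp bin, for 57 bound ribosomal protein genes and all 2081 bound protein-coding genes. The ribosomal protein genes peak just upstream of the TSS (median -30 bp), and the broader curve of all bound genes is centred farther upstream (median -128 bp).

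Some of these promoters face or adjoin another gene. At 30 of 57 bound members (52.6%) another protein-coding gene had a TSS within 500 bp of the summit, and the assay cannot assign the peak to either gene. The same count was not made over all bound genes. RpL13 shared its summit with Dref, which encodes the factor that binds the DRE, at a signal of 214.1. RpL28 shared its summit with eIF1, a translation initiation factor, and RpL14 with Nelf-E, a subunit of a complex that pauses RNA polymerase II. The summit lay nearer to a neighbour at 4 members, among them RpL34a (Trmt61), RpL18 (Neos) and RpLP0-like (14-3-3zeta), and at an equal distance for RpS27A and Ip259. The TSS of the member itself was the nearest, or tied, at the other 53 (93.0% of 57). Over all bound genes this held for 1492 of 2081.

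The paralogue sets showed an uneven split. In 13 sets with 27 genes, exactly 1 gene was bound in 11 sets, both were bound in 2 (RpL34 and RpLP0) and no set lacked a bound gene. In the last 2 sets, the summits of RpL34a and RpLP0-like were the ones nearer to a neighbouring gene. With each summit given only to its nearest gene, 13 of 13 sets had exactly 1 bound gene. Not all of these are duplicates of equal kind, since RpLP0-like and RpL24-like resemble assembly factors known from yeast (Mrt4 and Rlp24).

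Genes known mainly for germline use were on the unbound side. RpL22 had 196.3 pooled and RpL22-like, used in the testis, had no region in any list. RpS5a had 150.8 and RpS5b, used in the female germline, had 30.7. RpS10b had 239.4 and RpS10a had 48.4. RpS19a had 112.4, and RpS19b had no pooled region and 14.1 in replicate 3 only.

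The other sets split likewise. RpL7 with 408.3 stood beside RpL7-like with 49.0, RpL24 with 233.9 beside RpL24-like with 28.3, and RpS15Aa with 154.2 beside RpS15Ab with 37.7. RpS28b with 237.7 stood beside RpS28a with 40.8 and RpS28-like with no region. RpL10Ab with 90.7 and RpL37-1 with 99.4 each had a partner, RpL10Aa and RpL37-2, with no region in any list.

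RpS14a and RpS14b, adjacent on the X, were the closest pair in signal. RpS14a had 96.3 pooled, 64.6 in replicate 2 and 28.4 in replicate 3, and RpS14b had 78.9, 62.8 and 14.96. Their values fell on opposite sides of the IDR boundary by a small margin, and replicate 2 placed both among its strongest regions. The printed window of RpS14b is that of its TSS with the TCT initiator, and the pooled summit lay at -336 bp from that TSS and at -62 bp from another annotated TSS of the gene. The printed windows of RpL34a and RpL34b are identical at 37 of 120 positions when laid base on base (30.8%). How reads that match both copies of a near-identical pair were treated is not given in the sources used here.

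**Figure D4:**
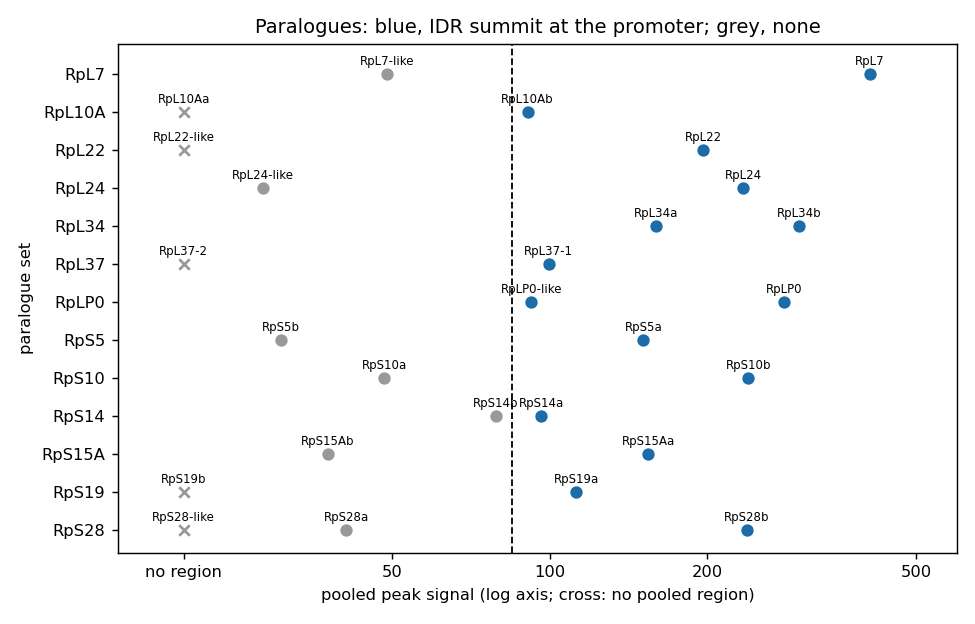
Pooled peak signal (log axis) of the genes in 13 paralogue sets, blue for bound and grey for unbound, with crosses at the left for genes with no pooled region and a dashed line at the smallest IDR signal of 84.6. In 11 sets exactly 1 gene lies right of the line, and in RpL34 and RpLP0 both do.

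The 35 unbound members fell into several kinds. Of these, 27 (77.1%) had a pooled region, beside 42.5% of all unbound protein-coding genes. The 27 had a median signal of 50.3, beside 40.2 in all unbound genes with a pooled region. Of the 27, 14 were at 50 or above. The remaining 8 without a pooled region were RpL10Aa, RpL21, RpL22-like, RpL37-2, RpL40, RpS19b, RpS28-like and RpS9. Of those, RpL10Aa, RpL22-like, RpL37-2 and RpS28-like had no region in any of the lists. The sets of paralogues accounted for 12 of the 35, and 7 of these 12 had a pooled region, beside 20 of the other 23.

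The 23 unbound genes outside the paralogue sets each encode a protein with no second gene in those sets. Among them, besides those named above, pooled signals were 70.4 at RpS26, 64.0 at RpL7A and 63.7 at RpL15. Other signals were 56.1 at RpS24, 53.7 at RpL38, 51.2 at RpL12, 48.9 at RpL6 and 32.2 at RpS13. The median over all unbound genes with a pooled region was 40.2, and over bound and unbound genes together 51.4. RpS9 had no pooled region although it had 27.4 in replicate 2 and 24.6 in replicate 3, at summits of +48 and +181 bp. RpL21 had 23.1 in replicate 2 only.

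At 5 unbound members the nearest IDR summit was more than 100000 bp away. They were RpL15, with the nearest 4388372 bp away, RpL38 (1458057 bp), RpL5 (669162 bp), RpL21 (380345 bp) and RpL10 (216588 bp). RpL15, RpL38 and RpL5 are known to lie in the heterochromatin near centromeres. How well reads could be mapped there was not tested.

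The TCT initiator was common to nearly all members. It was found on the strand of the gene within 20 bp of a TSS in 80 of 92 genes (87.0%), beside 6.78% of all protein-coding genes. Its C lay 1 to 9 bp downstream of the annotated TSS in 69 of the 80. Of bound members 53 of 57 (93.0%) had it and of unbound members 27 of 35 (77.1%). The unbound genes outside the paralogue sets had it in 22 of 23, and those in the sets in 5 of 12.

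Genes with the initiator that are no ribosomal protein genes were bound in 179 of 865 cases (20.7%), beside 66.3% of the members with it. Their summits lay at a median distance of 186 bp from a TSS, or 157.5 bp in those whose own TSS was the nearest. Members without it were bound in 4 of 12 cases, at RpS20, RpS12, RpL17 and RpLP0-like. Mitochondrial ribosomal protein genes had it in 3 of 73 cases.

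The DRE, TATCGATA on either strand within 100 bp of a TSS, was found in 19 of 57 bound members (33.3%, 21.4 to 47.1%) and in 8 of 35 unbound members (22.9%, 10.4 to 40.1%). The share was 8.49% in all protein-coding genes and 12.9% in all bound genes. Mitochondrial ribosomal protein genes had the DRE in 16 of 73 cases (21.9%), and the bound ones among them in 5 of 20. In bound members the match nearest to the summit was within 250 bp in 20 genes and within 50 bp in 12. In the printed promoters it lay 7 bp from the summit of RpS25, 11 bp from that of RpS14a and 46 bp from that of RpS10b. At RpL34a the DRE nearest to the summit lay 58 bp away and was not the one in the printed window. RpS14b had no such word within 100 bp of any of its TSSs. Distances from motif to summit were not computed for other bound genes. Summits within 60 bp of a TSS made up 77.2% in bound members, beside 19.9% in all bound genes. A motif near the TSS thus tends to lie near the summit of a member as well.

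The M1BP site, GGTCACACT, was found in 6 of 57 bound members (10.5%) and in 2 of 35 unbound members (5.71%). The share was 5.85% in all genes and 8.17% in all bound genes. Mitochondrial ribosomal protein genes had it in 8 of 73 cases (11.0%), and the bound ones among them in 0 of 20. The M1BP site lay within 50 bp of the summit in 6 of the 9 bound members with a match within 250 bp. The shortest distances were 2 bp at RpL37A, 3 bp at RpLP0 and 11 bp at RpLP1. The longest were 98 bp at RpL27, 195 bp at RpL19 and 205 bp at RpS25. These distances too were not computed for other bound genes. The promoter of RpS9 has the M1BP site and the TCT initiator and no pooled region.

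The cAMP response element, TGACGTCA, which relatives of Atf-2 bind in other species, was in none of the 92 genes within 100 bp of a TSS, nor within 250 bp, beside 0.351% of all genes at 100 bp. The words CACAGTGG and CAACACTG, taken from an earlier look at these data, were found in 1 and 2 of 57 bound members and in 0 and 2 of 35 unbound members. Among all genes they were in 1.08% and 3.47%, and among all bound genes in 3.32% and 8.55%. CAACACTG is in the window of RpL23A on the opposite strand. A match describes the sequence and does not show a binding site, and windows without a match say nothing of the factor.

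**Figure D5:**
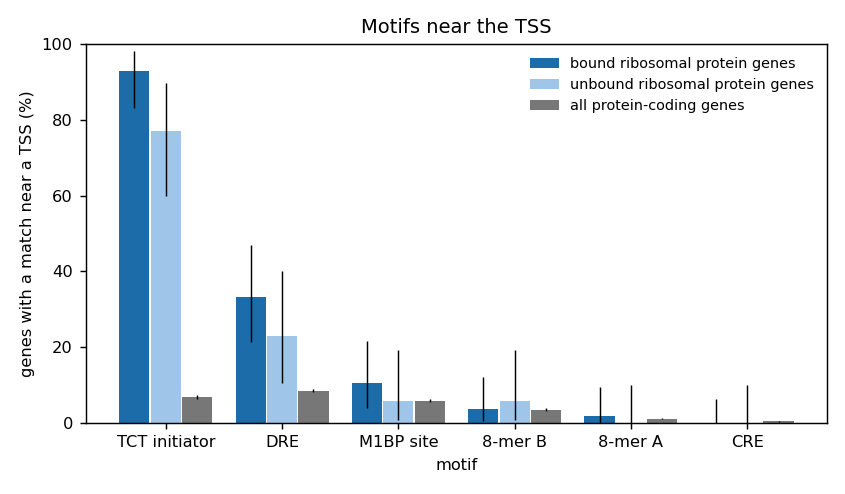
Percent of genes with a motif near a TSS for 57 bound members, 35 unbound members and all 13945 protein-coding genes, with exact 95% intervals as vertical lines (8-mer A is CACAGTGG and 8-mer B is CAACACTG). The TCT initiator is in 93.0, 77.1 and 6.78%, the DRE in 33.3, 22.9 and 8.49%, and the CRE in none of the members.

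The GC content of the 100 bp on each side of the outermost TSS had a median of 43.3% in bound and 36.3% in unbound members, and of 41.3% both in all genes and in all bound genes. It was above the median of all genes in 37 of 57 bound and 9 of 35 unbound members. Whether base composition affects the peak signal was not tested. Small nucleolar RNA genes lay within 21 of 57 bound members (36.8%, 24.4 to 50.7%) and 7 of 35 unbound members (20%, 8.44 to 36.9%), and the intervals overlap. RpS5a held the most, with 14.

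Other genes of the ribosome and its assembly were read in the same way. The proteins sta and Rack1, which belong to the small subunit but do not bear an RpS symbol, were both bound, with 98.9 at +13 bp and 124.9 at -13 bp. Of the factors that act on these promoters, Dref was bound through the summit it shares with RpL13, M1BP had 84.5, just below the IDR boundary, and Trf2 had 73.8. Of 19 genes for ribosome assembly and the nucleolus 4 were bound, beside 14.9% of all protein-coding genes, and the difference was not tested. The 4 were Ns2 (495.8), eIF6 (278.2), Surf6 (109.4) and Ns1 (86.2), the last just above the IDR boundary. Fib, the methyltransferase fibrillarin, had 81.1 and Myc, a regulator of ribosome production, had 51.0, both unbound.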

How the data were processed

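The signal values are those the authors deposited in 4 peak lists on dm6: a list for each of replicates 2 and 3, each from that replicate and a control, a list on the pooled replicates, and a list after IDR, per the deposited readme texts. Neither aligner nor caller, nor the threshold of the IDR step, is given in the sources. Lists on dm3 were not used. Read totals are not part of the lists, so depth is unknown.

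All else was computed with pandas 2.3.3, numpy 2.4.6 and scipy 1.17.1 under Python 3.11.15, and drawn with matplotlib 3.10.9. Summits were placed against the TSSs of the Ensembl release 115 annotation of Release 6, counting from 1, and where several lay within 500 bp of a TSS the strongest was taken. Placement was tested on simulated summits planted within and beyond 500 bp of a TSS. Assignment, or its absence, followed the rule at 200 of 200 genes. Genes and lists were chosen with earlier results of these data known. No test was made, since a single group was measured and genes are not replicates of it. Named are the 12 bound members of highest pooled signal, the unbound members with their strongest pooled region, the paralogue sets, the role groups and the members next to the boundaries. Some items that this rule would name are not reported here. Mitochondrial ribosomal protein genes and genes with a TCT initiator were added as comparisons after values were seen, as were single genes named for a neighbour, a motif, a position or a feature such as small nucleolar RNAs. Alternatives were distances of 250 and 1000 bp, the outermost TSS, the nearest gene only, the stronger 1632 IDR peaks, each replicate alone and a motif window of 250 bp.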

Additional observations from a re-analysis of the deposited data

How the results depend on the processing

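Of 62 values under other settings, 11 moved past the limits used, which were 1.5 times for counts, the exact interval for motif shares and the SD of 1.41 bp between replicate medians for the position. No sign changed. Bound members numbered 57 as reported, beside 14.9% of all genes, and 56 at 250 bp, beside 11.8%. At 1000 bp there were 59 (with RpS15 and RpS19b), beside 17.3%. With the outermost TSS there were 57, beside 13.1%, and with the nearest gene only 53, beside 11.0%. With the stronger 1632 IDR peaks there were 36 (24 large, 12 small), beside 1154 of all genes, by construction a shorter list, and the paralogue sets had 1 with both bound and 4 with none. The IDR step was not repeated on 1 replicate. In its place stand the members among the strongest 3265 regions of a single replicate, already counted above. There were 50 for replicate 3 alone and 55 for replicate 2 alone, and 52 of the 55 were among the bound members. In the same order the large subunit had 33 and 35, the small subunit 17 and 20, and 2 and 1 paralogue sets had no such gene. With the nearest gene only, 0 sets had both bound. The median summit position was -28 bp with the outermost TSS, -31 bp for replicate 2 and -33 bp for replicate 3, and the cause was not tested. No paired analysis was possible because there was only 1 group. The replicates measure only the spread between these samples, and with unknown depth their signals cannot be weighed. Whether the GFP tag, the antibody or accessible chromatin at active promoters contributes to the peaks was not tested.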
